A study of Mus musculus with 9 samples.

Results

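The genes described here encode 52 subunits of the oxidative phosphorylation (OXPHOS) machinery that are carried in the nuclear genome. They were taken by symbol, from a list of names that uses no value of the table, though earlier results of these data were known when it was drawn up, from a table of 55401 rows measured by RNA sequencing of whole mouse hearts. Where a symbol stood on several rows, the row with the largest total was used. The set held 21 subunits of complex I, 4 of complex II, 6 of complex III, cytochrome c (Cycs), 10 subunits of complex IV and 10 of complex V, and all 52 passed the filter on low counts. Hearts came from male mice operated at 8 to 12 weeks of age, with 3 libraries in each of 3 groups. KO-TAC hearts were from c-Myc flox/flox;Tcf21 iCre mice after transverse aortic constriction (TAC), a banding of the aorta that puts the heart under pressure overload. In these mice tamoxifen at 45 mg/kg on 5 days activates a Cre driven from Tcf21, a gene of cardiac fibroblasts, so that Myc is deleted in fibroblasts and not in the muscle cells that hold most mitochondria. TAC hearts were from wild-type (WT) mice with the same operation, and both banded groups carry a time of 12 weeks in their titles. Control hearts were from WT mice; their labels give the treatment only as control, and they were taken as the sham-operated group that the design text describes. The labels do not say whether WT mice received tamoxifen, and no knockout hearts without TAC and no Cre-only hearts were analysed here, so tamoxifen, Cre and Myc deletion cannot be told apart.

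Oxidative phosphorylation makes most of the ATP of a beating heart. Complex I takes electrons from NADH and complex II takes them from succinate, both pass them to ubiquinone, complex III passes them on to cytochrome c, and complex IV hands them to oxygen. Complexes I, III and IV pump protons across the inner mitochondrial membrane, and complex V, the ATP synthase, uses the return of these protons to make ATP. Cardiomyocytes are packed with mitochondria, so transcripts of these subunits in whole-heart RNA come largely from cardiomyocytes. In bulk RNA, fewer cardiomyocytes and less of a transcript per cardiomyocyte cannot be told apart. Nuclear respiratory factor 1 (NRF1), the ETS factor GABP and the estrogen-related receptors with their coactivator PGC-1alpha are known regulators of many of these genes.

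Total counts ran from 59702513 (TAC replicate 3) to 109162107 (KO-TAC replicate 1), and the number of genes counted at least once lay between 21510 and 25001. A set of 3 libraries stood apart in ways that touch the values below. TAC replicate 3 and TAC replicate 1 had summed cardiomyocyte marker levels of 16020 and 51800 CPM (counts scaled to a common library size with TMM factors), and KO-TAC replicate 1 had 51057 CPM, against 75698 to 79214 CPM in control hearts. The TMM factor was 1.448 in TAC replicate 3 and 1.245 in KO-TAC replicate 1, against 0.8529 to 1.008 in the rest. As a share of all raw counts the markers took 2.319%, 4.918% and 6.355% in TAC replicate 3, TAC replicate 1 and KO-TAC replicate 1. Control hearts had 6.755% to 7.099%, so KO-TAC replicate 1 was nearer to them by this measure. All 12 cardiomyocyte markers had counts in each of the 9 libraries, as heart tissue should. The 6 skeletal muscle markers summed to at most 1.17 CPM in a library and the 5 adipocyte markers to at most 1.26 CPM, with Ucp1, which defines brown fat, at 0 in all 9. TAC replicates 1 and 3 also had the highest sums of the 8 fibroblast markers (2911 and 3016 CPM, against 1492 to 1689 CPM in control hearts) and of the 8 endothelial markers (1477 and 1800 CPM, against 926.7 to 964.2 CPM in control hearts).

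Promoters of 40 of the 52 genes were found in RefSeq (build GRCm38.p6), and the 250 bases before each start were searched on both strands. The letters CGCANGCGC, a core recognised by NRF1, stood in 7 of the 40 (17.5%), beside 10.2% of 11670 promoters of protein-coding genes tested here. An E-box CACGTG, letters recognised by MYC with its partner MAX, stood in 4 of the 40 (10%), beside 8.2%. The ETS letters CCGGAAG were in 10% against 12.6%, the estrogen-related receptor letters AAGGTCA in 2.5% against 2.8%, the SP1 letters GGGCGG in 30.0% against 56.4%, and the YY1 letters AAGATGG in 0 of 40 against 4.1%. Some letters overlap in one stretch, and a match is a description of the sequence only. The windows below of 80 bases, 5′ to 3′ on the gene's own strand and before its annotated start, show the NRF1 letters in capitals for Sdha and Sdhd, which had the lowest and highest values of their comparisons below, for cytochrome c and for the ATP synthase subunit Atp5h.
Sdha, chr13:74350281-74350360, minus strand: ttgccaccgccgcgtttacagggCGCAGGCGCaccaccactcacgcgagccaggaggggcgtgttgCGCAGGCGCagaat
Sdhd, chr9:50603884-50603963, minus strand: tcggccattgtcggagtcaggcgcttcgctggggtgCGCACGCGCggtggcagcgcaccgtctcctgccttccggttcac
Cycs, chr6:50566587-50566666, minus strand: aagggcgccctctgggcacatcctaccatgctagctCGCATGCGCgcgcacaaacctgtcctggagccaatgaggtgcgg
Atp5h, chr11:115420016-115420095, minus strand: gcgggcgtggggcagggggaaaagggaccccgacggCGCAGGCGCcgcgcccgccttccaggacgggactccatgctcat
The next windows show the E-box in capitals, since Myc is the gene deleted in KO-TAC mice.
Ndufv1, chr19:4012882-4012961, minus strand: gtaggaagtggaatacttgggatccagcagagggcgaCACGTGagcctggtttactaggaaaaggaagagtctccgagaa
Atp5g3, chr2:73911497-73911576, minus strand: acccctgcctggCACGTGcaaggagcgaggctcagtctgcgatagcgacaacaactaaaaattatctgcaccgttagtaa

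The subunits all moved to one side in TAC replicates 2 and 3, and TAC replicate 3 lay far below the rest. They were split in other banded hearts, with 30 of 52 below the control mean in TAC replicate 1 and 39 of 52 in KO-TAC replicate 1. Set against the mean of the control hearts on the log2 CPM scale, the median of the 52 genes was -0.17, 0.14 and 0.07 in KO-TAC replicates 1, 2 and 3, and -0.07, 0.25 and -2.32 in TAC replicates 1, 2 and 3. Control hearts lay between -0.033 and 0.026. TAC replicate 3 had the lowest level of the 9 libraries for 52 of 52 genes, and TAC replicate 2 had the highest for 37 of 52. Between TAC replicates 2 and 3 the level differed by 1.97-fold for Ndufa2 and by 19.9-fold for Sdha, the ends of the range over the 52 genes. The median SD among hearts was 0.22 in KO-TAC, 1.39 in TAC and 0.049 in control hearts on the log2 scale, beside 0.33, 0.61 and 0.17 over all genes. The set was thus more variable than the typical gene in TAC hearts and less variable in the other groups. The values over all genes include genes near the low-count filter, and genes of like abundance were not compared. Summed over the 52 genes, KO-TAC hearts had 20001, 28846 and 29311 CPM, TAC hearts 21600, 33655 and 4751 CPM, and control hearts 28498, 29339 and 29564 CPM. As a share of all raw counts, which uses no scaling factor, the set took 2.49%, 2.91% and 2.72% in KO-TAC hearts, 2.05%, 2.89% and 0.688% in TAC hearts, and 2.43%, 2.71% and 2.73% in control hearts. KO-TAC replicate 1 lay below the control hearts in scaled CPM and within their range as a share of counts.

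**Figure D1:**
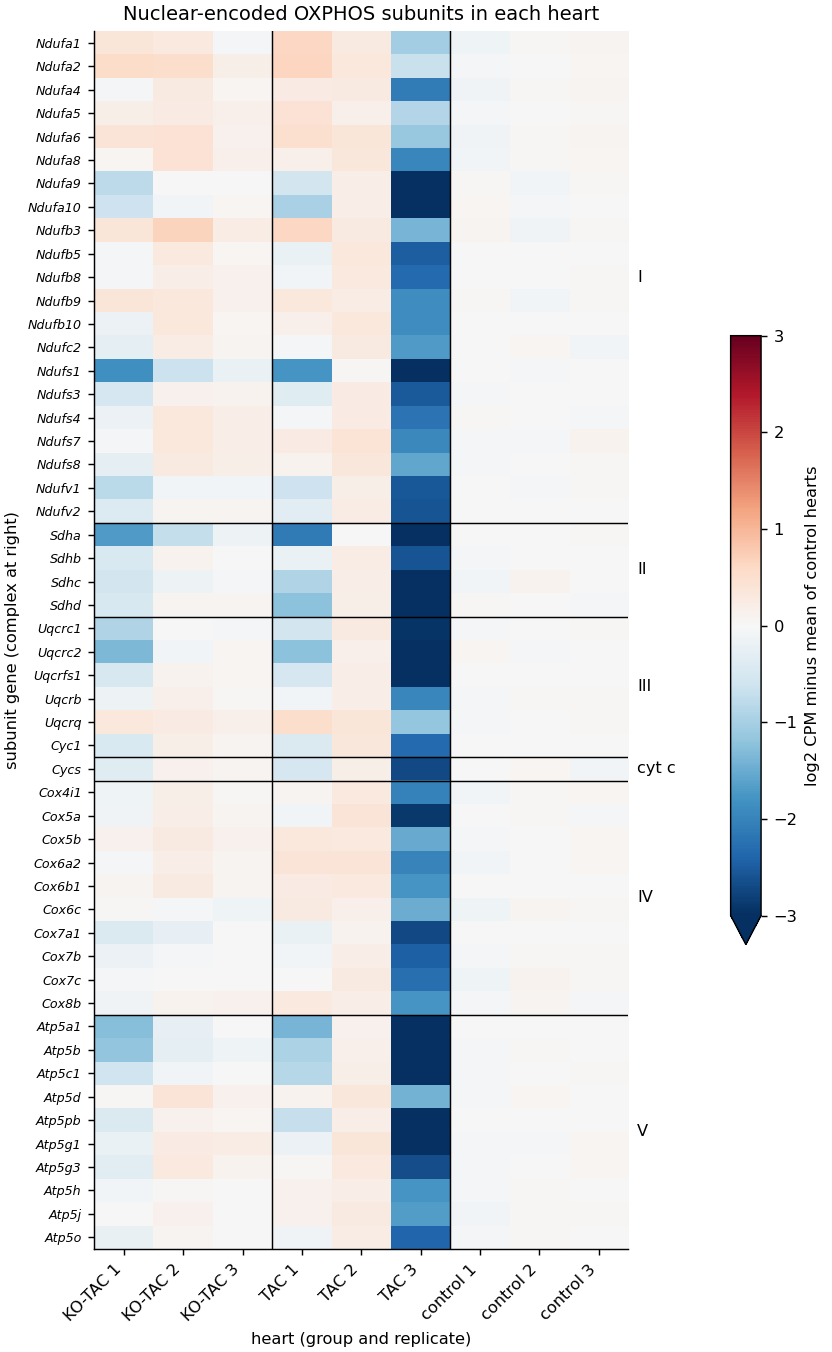
Log2 CPM of each of the 52 subunit genes (rows, grouped by complex) minus its mean in the control hearts, in each of the 9 hearts (columns); values under -3 share the darkest blue. The column of TAC replicate 3 is blue for 52 of 52 genes, while TAC replicate 2 is above the control mean for 52 of 52.

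The comparison of TAC with control hearts asked whether pressure overload moved the subunit genes in WT mice. The median log2 difference over the 52 genes was -0.34, beside 0.026 over all 19051 genes tested; 6 genes were higher and 46 lower in TAC hearts, from -1.21 (Sdha) to 0.19 (Ndufa2). By complex the medians were -0.19 for complex I, -0.80 for complex II, -0.51 for complex III, -0.59 for cytochrome c, -0.21 for complex IV and -0.38 for complex V. None of the 52 passed in edgeR's quasi-likelihood test (Benjamini-Hochberg adjusted p of 0.406 or more for each), where 0% of the 19051 genes passed, and 0 of the 52 had an unadjusted p under 0.05 against 4054 of all genes. DESeq2 passed 0 of the 52, beside 7.61% of all genes, and limma-voom, with a median of -0.67, passed 0 of the 52 and 0% of all genes. No subunit separated all 3 TAC hearts from all 3 control hearts, either above (14.1% of all genes did) or below (14% did). These differences rested on single TAC hearts. Without TAC replicate 3 the median was 0.11 with 33 genes higher and 19 lower, without replicate 2 it was -0.78, and without replicate 1 it was -0.50. Without replicate 2, Sdha, Ndufs1 and Sdhd passed as lower in TAC (edgeR adjusted p = 0.0195, 0.0264 and 0.0333), which are 3 of 52 members where 14% of all genes passed as lower.

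In complex I, the catalytic subunits had different spreads. Ndufs1 (chromosome 1, 63143596 to 63176833, GRCm38), which carries iron-sulfur clusters of the NADH-oxidising arm, was counted at 200.9, 702.3 and 47.2 CPM in TAC hearts 1, 2 and 3, against 695.9, 675.7 and 697.7 CPM in control hearts. This is a log2 difference of -1.12 with an SE of 0.78 (edgeR adjusted p = 0.406). Replicates 1 and 3 were far below the control range and replicate 2 was just above it. Ndufv1, the subunit that binds NADH and FMN, had 382.3, 670.7 and 101.3 CPM in TAC hearts, against 586.1, 581.7 and 608.5 CPM in control hearts. Ndufv2, the iron-sulfur partner of Ndufv1, had 243.9, 362.9 and 51.8 CPM in TAC hearts, against 306.9, 312.3 and 314.3 CPM in control hearts. Ndufs3, a core subunit of the arm that leads to ubiquinone, had 174.3, 266.0 and 39.1 CPM in TAC hearts, against 219.0, 223.1 and 225.8 CPM in control hearts. All 3 were low in replicates 1 and 3 and above the control hearts in replicate 2. The iron-sulfur subunits near the ubiquinone site differed from this, with TAC replicates 1 and 2 both above the control hearts. Ndufs7 had 280.5, 313.4 and 62.0 CPM in TAC hearts, against 225.1, 232.3 and 252.1 CPM in control hearts. Ndufs8 had 127.1, 149.2 and 40.1 CPM in TAC hearts, against 116.1, 117.8 and 121.5 CPM in control hearts. Ndufa2, a small accessory subunit with the highest log2 difference of the complex (0.19, SE 0.31), had 172.0, 137.1 and 69.8 CPM in TAC hearts, against 106.0, 109.7 and 116.0 CPM in control hearts. Ndufa4, listed here by its symbol but since assigned to complex IV, had the highest level per kilobase of transcript under complex I symbols and was at 496.6, 506.4 and 98.0 CPM in TAC hearts, against 390.7, 428.5 and 440.8 CPM in control hearts. The accessory subunits Ndufa1, Ndufa5, Ndufa6, Ndufa8, Ndufa9, Ndufa10, Ndufb3, Ndufb5, Ndufb8, Ndufb9, Ndufb10, Ndufc2 and Ndufs4 had log2 differences from -0.77 (Ndufa10) to 0.10 (Ndufa1).

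Complex II, which is also the succinate dehydrogenase of the citric acid cycle and is wholly nuclear-encoded, had the lowest median. Sdha (chromosome 13, 74322254 to 74350280), the flavoprotein that oxidises succinate and whose promoter is shown above, was at 324.7, 1429 and 71.9 CPM in TAC hearts, against 1396, 1393 and 1437 CPM in control hearts (log2 difference -1.21, SE 0.85, edgeR adjusted p = 0.408). Its iron-sulfur partner Sdhb had 433.1, 575.9 and 82.9 CPM in TAC hearts, against 483.8, 503.7 and 499.9 CPM in control hearts. TAC replicate 1 held Sdhb near the control level while Sdha was at a small part of it. Of the membrane anchors, Sdhd (chromosome 9, 50596357 to 50603812) had 122.2, 320.6 and 25.6 CPM in TAC hearts, against 290.1, 284.7 and 279.0 CPM in control hearts, and Sdhc had a log2 difference of -0.74. All 4 were below every control heart in TAC replicates 1 and 3 and above the control mean in replicate 2.

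Complex III and cytochrome c showed the same order of hearts. The core subunit Uqcrc2 had 304.8, 785.8 and 46.4 CPM in TAC hearts, against 735.6, 688.3 and 706.8 CPM in control hearts. Its partner Uqcrc1 had 656.1, 1157 and 125.7 CPM in TAC hearts, against 928.2, 972.3 and 979.8 CPM in control hearts. The Rieske iron-sulfur protein Uqcrfs1 had 431.6, 709.8 and 50.2 CPM in TAC hearts, against 617.2, 607.7 and 615.2 CPM in control hearts. For these 3 genes TAC replicate 2 was the highest heart of either group and replicate 3 the lowest. Cyc1, the cytochrome c1 that reduces cytochrome c, had 427.4, 726.5 and 115.2 CPM in TAC hearts, against 578.6, 575.6 and 574.3 CPM in control hearts. Cycs, the mobile electron carrier itself, had 311.2, 500.8 and 67.5 CPM in TAC hearts, against 446.3, 460.0 and 416.9 CPM in control hearts. Uqcrq, a small subunit, stood apart from these with 410.8, 366.5 and 126.7 CPM in TAC hearts, against 274.2, 286.1 and 289.6 CPM in control hearts. Its TAC replicates 1 and 2 both exceeded the control hearts, and its log2 difference was 0.09; Uqcrb had -0.35.

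In complex IV, 10 of 10 subunits had log2 differences below 0, each smaller in size than its SE. Cox7a1 came nearest to its SE (-0.52, SE 0.55). Cox4i1, the most abundant of them per kilobase of transcript, had 1123, 1304 and 262.3 CPM in TAC hearts, against 1002, 1087 and 1114 CPM in control hearts. Cox5a, which binds to the catalytic core, had 398.7, 549.6 and 57.4 CPM in TAC hearts, against 420.4, 435.2 and 414.7 CPM in control hearts. Cox6c had 583.3, 538.4 and 171.4 CPM in TAC hearts, against 443.2, 511.8 and 495.6 CPM in control hearts. In 2 of the 3 genes TAC replicate 1 lay above the control hearts, and in Cox5a it lay just below them. Cox5b, Cox6b1, Cox7b and Cox7c had log2 differences from -0.39 (Cox7b) to -0.09 (Cox5b), and the muscle isoforms Cox6a2, Cox7a1 and Cox8b are given below.

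For complex V, the large subunits of the catalytic head had the lowest values. Atp5b (chromosome 10, 128083273 to 128090391), the catalytic beta subunit and the most abundant of the 52 per kilobase of transcript (per kilobase of coding sequence Cox6a2 was higher), had 2162, 4691 and 444.1 CPM in TAC hearts, against 4041, 4325 and 4231 CPM in control hearts (log2 difference -0.79, SE 0.70, edgeR adjusted p = 0.508). Its alpha partner Atp5a1 had 1391, 3957 and 254.5 CPM in TAC hearts, against 3610.2, 3617 and 3692 CPM in control hearts. The rotor subunit gamma, Atp5c1, had 421.0, 865.6 and 71.4 CPM in TAC hearts, against 744.1, 770.4 and 785.5 CPM in control hearts. All 3 were low in replicate 1 and lowest in replicate 3. The delta subunit Atp5d, the smallest difference of the complex (-0.15, SE 0.40), had 366.1, 428.4 and 126.5 CPM in TAC hearts, against 327.2, 354.9 and 340.5 CPM in control hearts. Stalk subunits differed too: Atp5pb, subunit b, had 440.0, 810.8 and 74.2 CPM in TAC hearts, against 710.6, 703.4 and 716.1 CPM in control hearts. Atp5h, subunit d, had 589.4, 617.4 and 158.6 CPM in TAC hearts, against 524.6, 556.8 and 543.3 CPM in control hearts. Atp5h was above the control hearts in TAC replicate 1 and Atp5pb was below them. The ring subunits Atp5g1 and Atp5g3 and the stalk subunits Atp5j and Atp5o lay between -0.39 (Atp5o) and -0.20 (Atp5j).

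**Figure D2:**
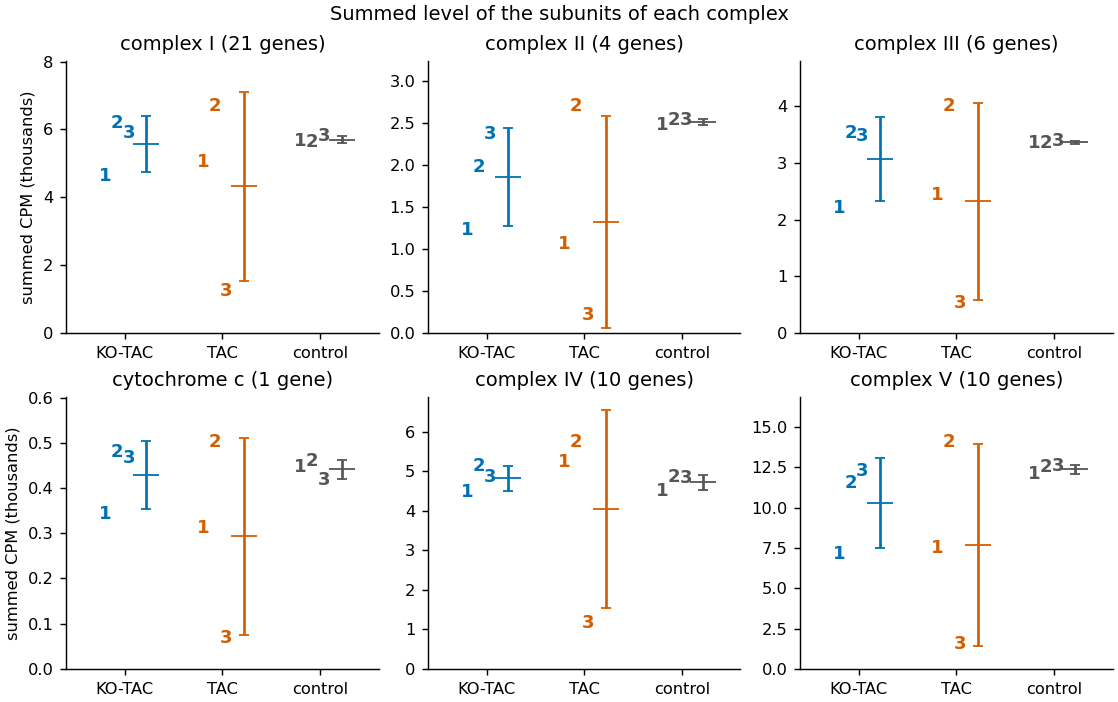
Summed CPM of the subunit genes of each complex in KO-TAC, TAC and control hearts; each digit is the replicate number of 1 heart, and the horizontal mark with its bar is the mean ± SD (n = 3). TAC replicate 3 is the lowest heart and TAC replicate 2 the highest in each of the 6 panels, and KO-TAC replicate 1 is the lowest KO-TAC heart.

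Cardiomyocyte markers followed the same hearts as the subunits. On the log2 scale, their median minus the control mean came to -0.40, 0.34 and -2.36 for TAC replicates 1, 2 and 3, where the 52 subunits had -0.07, 0.25 and -2.32. In KO-TAC replicates 1, 2 and 3 the markers had -0.31, 0.22 and 0.11, where the subunits had -0.17, 0.14 and 0.07. The heart with the fewest cardiomyocyte transcripts was therefore also the one with the fewest subunit transcripts, and the markers' part in the result was not tested. Fibroblast markers had medians of 0.91, -0.13 and 1.13 in the TAC hearts, and erythroid markers summed to 494.1, 934.3 and 2278 CPM there, against 483.8 to 760.5 CPM in control hearts.

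**Figure D3:**
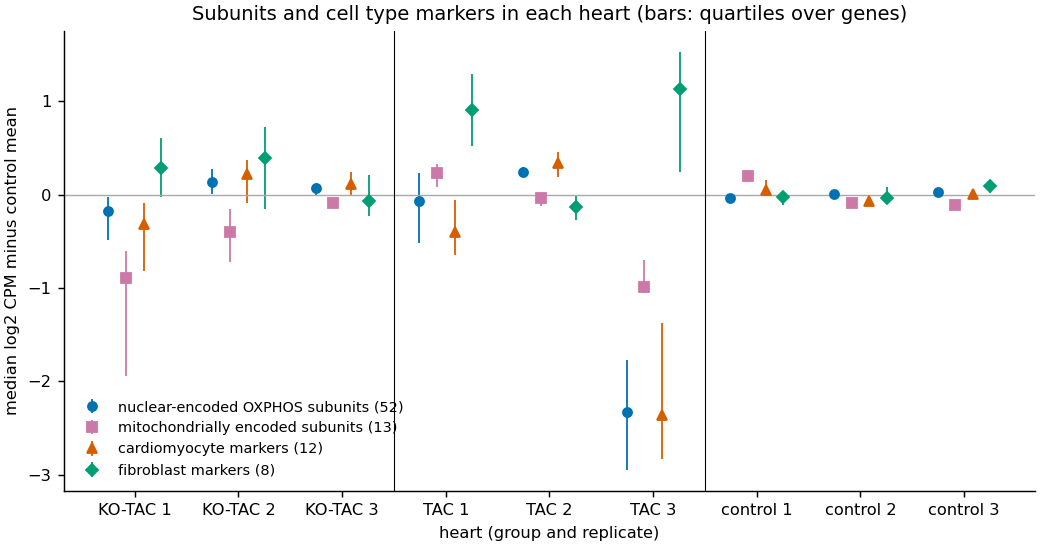
Median log2 CPM minus the control mean over the nuclear-encoded subunits (circles), mitochondrially encoded subunits (squares), cardiomyocyte markers (triangles) and fibroblast markers (diamonds) in each heart; bars span the quartiles over the genes of a list. In TAC replicate 3 the nuclear-encoded subunits (-2.32) and cardiomyocyte markers (-2.36) were low while fibroblast markers were high (1.13).

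The comparison of KO-TAC with TAC hearts asked what fibroblast deletion of Myc did under the same load. The fitted values of 52 of 52 subunit genes were higher in KO-TAC hearts, with a median log2 difference of 0.35 beside 0.010 over all genes, from 0.11 (Ndufa1) to 0.78 (Sdhd). Medians by complex were 0.36 for complex I, 0.49 for complex II, 0.39 for complex III, 0.55 for cytochrome c, 0.29 for complex IV and 0.35 for complex V. None passed in edgeR (adjusted p of 0.758 or more, 0% of all genes), DESeq2 (0.869% of all genes) or limma-voom (median 0.66; 0% of all genes), and 0 of 52 had an unadjusted p under 0.05 in edgeR against 1420 of all genes. No subunit had KO-TAC hearts all above (5.17% of all genes) or all below (4.8%) the TAC hearts. The direction rested on TAC replicate 3: without it the median was -0.09, with 12 genes higher and 40 lower in KO-TAC hearts, and complex IV had 10 of 10 lower. Without TAC replicate 2 the median was 0.78. This comparison shares its TAC hearts with the comparison of TAC with control.

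Sdhd, the highest of the 52, was at 203.6, 300.0 and 298.8 CPM in KO-TAC hearts 1, 2 and 3, against 122.2, 320.6 and 25.6 CPM in TAC hearts (log2 difference 0.78, SE 0.67, edgeR adjusted p = 0.758). The KO-TAC hearts lay inside the range of the TAC hearts. Ndufa10, an accessory subunit and the highest of complex I, had 319.8, 470.6 and 517.9 CPM in KO-TAC hearts, against 252.6, 567.3 and 49.6 CPM in TAC hearts. Uqcrc2, the highest of complex III, had 279.6, 666.2 and 733.8 CPM in KO-TAC hearts, against 304.8, 785.8 and 46.4 CPM in TAC hearts. Its KO-TAC replicate 1 was below TAC replicate 1. Cox5a, the highest of complex IV, had 394.8, 487.5 and 449.7 CPM in KO-TAC hearts, against 398.7, 549.6 and 57.4 CPM in TAC hearts. Atp5pb, the highest of complex V, had 529.1, 776.7 and 737.7 CPM in KO-TAC hearts, against 440.0, 810.8 and 74.2 CPM in TAC hearts. In each of these genes TAC replicate 2 exceeded the KO-TAC hearts and TAC replicate 3 lay below them. At the low end were Ndufa1, with 116.2, 111.7 and 89.3 CPM in KO-TAC hearts against 140.9, 108.8 and 44.2 CPM in TAC hearts, and Cox6c, with 495.3, 471.3 and 439.8 CPM in KO-TAC hearts against 583.3, 538.4 and 171.4 CPM in TAC hearts. The genes whose promoters held the E-box letters had log2 differences of 0.33 (Ndufv1), 0.63 (Atp5pb), 0.48 (Atp5g1) and 0.36 (Atp5g3). The set that holds them had a median of 0.35, and the part of the E-box was not tested.

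Set against control hearts, which differ from KO-TAC hearts in load as well as genotype, the KO-TAC hearts had a set median near 0. The median log2 difference was 0.019 beside 0.038 over all genes, with 27 genes higher and 25 lower, from -0.75 (Ndufs1) to 0.43 (Ndufa2). Medians were 0.10 for complex I, -0.17 for complex II, -0.06 for complex III, -0.04 for cytochrome c, 0.04 for complex IV and -0.03 for complex V. None of the 52 passed in edgeR (adjusted p of 0.863 or more, 0% of all genes), DESeq2 (0.386% of all genes) or limma-voom (0%). In edgeR 0 of 52 had an unadjusted p under 0.05, against 1098 of all genes. The edgeR fit estimates each gene's spread over all groups, so the spread of the TAC hearts enters these p-values. The members' median SD was 1.39 in TAC, 0.22 in KO-TAC and 0.049 in control hearts. Fitting just the groups compared also passed 0 of the 52. In 9 of 52 genes all KO-TAC hearts lay above all control hearts (12.9% of all genes did) and in 5 all lay below (13.6% did), which are 17.3% and 9.62% of the set. The 9 were Ndufa2, Ndufa5, Ndufa6, Ndufa8, Ndufb3, Ndufb9, Uqcrq, Cox5b and Cox6b1, and the 5 were Ndufs1, Ndufv1, Sdha, Cox7a1 and Atp5b. With library size alone, without scaling factors, the median was 0.24 with 41 higher and 11 lower. Without KO-TAC replicate 1 it was 0.11 with 38 higher, and without replicate 2 it was -0.06 with 34 lower.

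Among the genes below the control hearts, Ndufs1 had 192.1, 439.8 and 602.8 CPM in KO-TAC hearts, against 675.7 to 697.7 CPM in control hearts. Sdha had 436.6, 860.1 and 1259 CPM in KO-TAC hearts, against 1393 to 1437 CPM in control hearts. Atp5b had 1835, 3472 and 3868 CPM in KO-TAC hearts, against 4041 to 4325 CPM in control hearts. KO-TAC replicate 1 was the lowest and replicate 3 the highest of the KO-TAC hearts in each. Ndufa2, above the control hearts, had 162.0, 159.8 and 124.8 CPM in KO-TAC hearts, against 106.0 to 116.0 CPM in control hearts. Uqcrq had 353.3, 336.3 and 314.1 CPM in KO-TAC hearts, against 274.2 to 289.6 CPM in control hearts. In these genes KO-TAC replicate 1, the lowest KO-TAC heart for Sdha and Ndufs1, was the highest.

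The genes above and below the control level differed in the length of their transcripts, a property not used to choose them. Across the 52 genes, the log2 difference of TAC from control and the annotated transcript length had a Spearman correlation of -0.71 (-0.17 over 14660 protein-coding genes), and that of KO-TAC from control -0.54 (-0.30 over all). For KO-TAC against TAC it ran the other way, at 0.67 over the 52 genes (-0.016 over all), with medians of 0.31 for the 33 short and 0.41 for the 19 long genes as split below. Single control hearts against their own mean had 0.46, -0.38 and -0.31, at far smaller differences. These are descriptions across genes that share the same libraries. For the 33 subunits with a coding sequence of up to 600 nt, the median log2 difference of TAC from control was -0.20, and for the 19 longer ones it was -0.62; in KO-TAC against control the medians were 0.08 and -0.18. In KO-TAC against control 25 of the 33 short ones were higher and 17 of the 19 long ones lower. By heart, the median of the long genes against the control mean was -0.61, 0.022 and 0.021 in KO-TAC replicates 1, 2 and 3, and -0.55, 0.20 and -2.99 in TAC replicates 1, 2 and 3. The short genes had -0.06, 0.24 and 0.08 in those KO-TAC hearts and 0.12, 0.28 and -1.96 in those TAC hearts. The gap between short and long genes was thus wide in KO-TAC replicate 1, TAC replicate 1 and TAC replicate 3. These are the 3 hearts with the lowest cardiomyocyte marker sums in scaled CPM. As a share of raw counts, KO-TAC replicate 1 was near the control hearts in these markers (6.355%, against 6.755% to 7.099%). No RNA integrity values stand in the labels, and their part in the result was not tested.

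**Figure D4:**
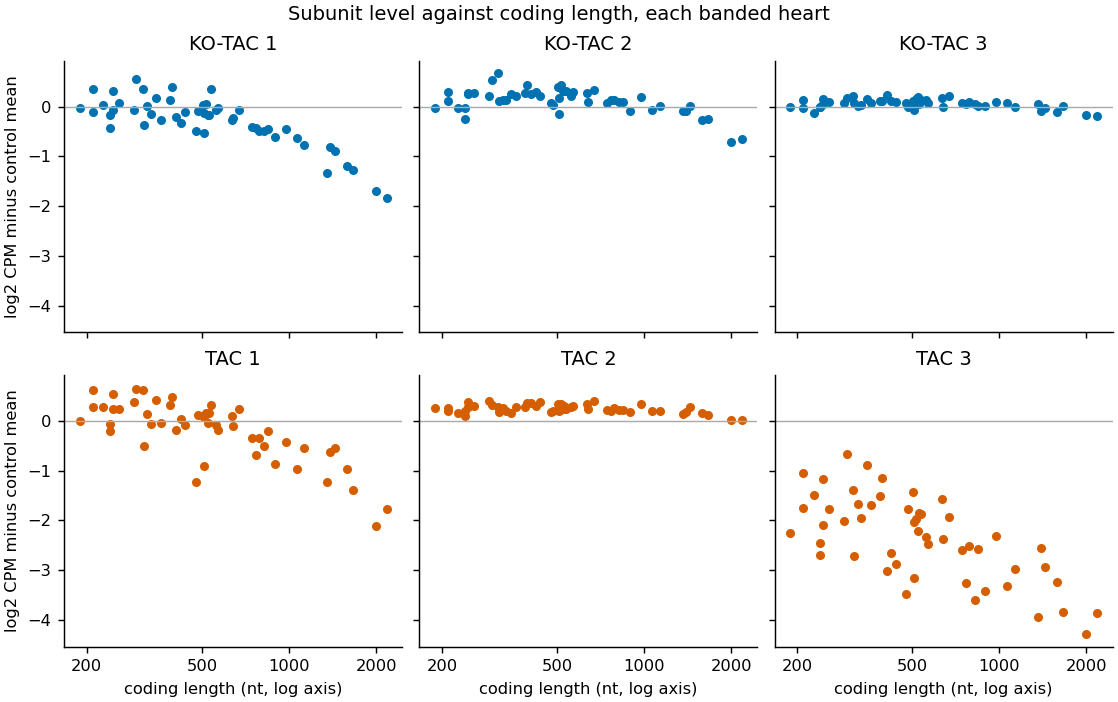
Log2 CPM minus the control mean of each of the 52 subunit genes against its coding length (nt, log axis), 1 panel for each KO-TAC and TAC heart. Longer genes lay lower in KO-TAC replicate 1, TAC replicate 1 and TAC replicate 3, and stayed near the level of the short genes in TAC replicate 2 and KO-TAC replicate 3.

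Cox6a2, Cox7a1 and Cox8b are the heart and skeletal muscle forms of complex IV subunits whose ubiquitous forms are Cox6a1, Cox7a2 and Cox8a, so the ratio of a pair within a heart needs no scaling. Cox6a2 (chromosome 7, 128205435 to 128206387) had 763.8, 919.5 and 840.3 CPM in KO-TAC hearts, 1041, 1049 and 197.7 CPM in TAC hearts, and 753.5, 808.0 and 827.7 CPM in control hearts. Cox6a1 had 45.0, 49.4 and 42.8 CPM in KO-TAC hearts, 62.5, 53.5 and 56.5 CPM in TAC hearts, and 34.3, 38.0 and 36.2 CPM in control hearts. The ubiquitous form was above the control hearts in all 6 banded hearts, including TAC replicate 3, where the muscle form was at its lowest. The log2 ratio of Cox6a2 to Cox6a1 was 3.39 ± 1.37 in TAC hearts and 4.46 ± 0.05 in control hearts (SD, n = 3 each; exact two-sided permutation p = 0.1, the smallest that 3 against 3 hearts allow, adjusted p = 0.45 over 9 tests). All 3 TAC hearts lay below all 3 control hearts, as did the KO-TAC hearts at 4.2 ± 0.11 (exact permutation p = 0.1, adjusted p = 0.45). The difference of TAC from control in this ratio was -1.08, and that of KO-TAC from control -0.26. Cox7a1 had 255.9, 289.9 and 339.5 CPM in KO-TAC hearts, 296.9, 370.1 and 53.0 CPM in TAC hearts, and 345.2, 344.6 and 339.9 CPM in control hearts. Its log2 ratio to Cox7a2 was 0.66 ± 0.31 in KO-TAC, 0.36 ± 0.65 in TAC and 0.95 ± 0.06 in control hearts (SD, n = 3 each; exact permutation p of 0.2 to 0.6 between groups). Cox8b had 238.3, 274.4 and 279.2 CPM in KO-TAC hearts, 310.5, 294.2 and 75.4 CPM in TAC hearts, and 244.5, 272.1 and 249.8 CPM in control hearts. Its log2 ratio to Cox8a was 1.95 ± 0.27 in KO-TAC, 1.58 ± 0.76 in TAC and 2.13 ± 0.10 in control hearts (exact permutation p of 0.2 to 0.7). In TAC replicate 3 each of the 3 muscle forms was lower relative to its ubiquitous form than in the other 8 hearts.

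**Figure D5:**
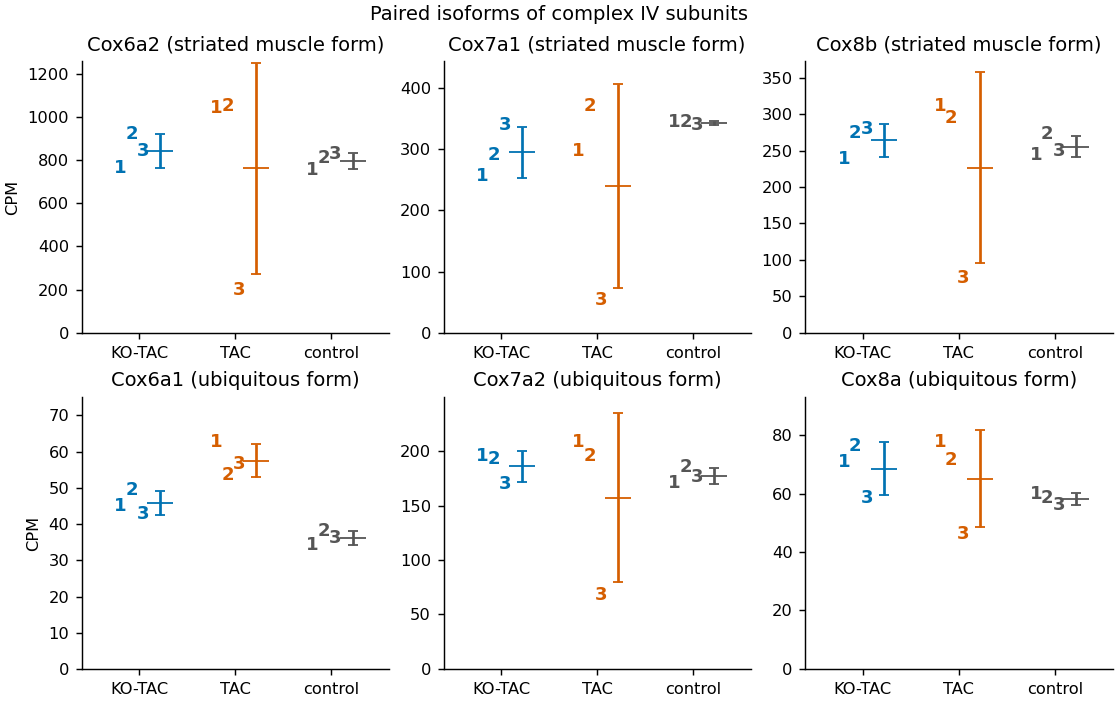
CPM of the striated muscle form (upper row) and the ubiquitous form (lower row) of 3 complex IV subunits in KO-TAC, TAC and control hearts; digits are replicate numbers, and the mark with its bar is the mean ± SD (n = 3). Cox6a1 was above the control hearts in all 6 banded hearts, while the 3 muscle forms, and also Cox7a2 and Cox8a, were at their lowest in TAC replicate 3.

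Other genes of the pathway were counted as lists, and none of the 116 tested passed in edgeR in any comparison. Of 45 tested assembly factors, which build the complexes, 35 were lower in TAC than in control hearts (median log2 difference -0.41), and 44 were higher in KO-TAC than in TAC hearts (0.41). Without TAC replicate 3 these medians were -0.07 and 0.12. Other complex I subunits (16 genes) had a median of -0.10 in TAC against control and 0.24 in KO-TAC against TAC, nearer 0 than the median of the complex I members. Other subunits of complexes III, IV and V (3, 6 and 6 tested) had medians of 0.005, 0.045 and -0.040 in TAC against control. In KO-TAC against TAC the medians of these 3 lists were 0.24, -0.077 and 0.27. The 15 genes of the mitochondrial membranes and protein import were all lower in TAC than in control hearts (median -0.46), and without TAC replicate 3 the median was -0.08 with 9 lower.

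The mitochondrially encoded subunits, transcribed inside the organelle, had another order of hearts than the nuclear ones. In scaled CPM the median was lowest in TAC replicate 3 for both. As a share of all raw counts, the mitochondrially encoded subunits were lowest in KO-TAC replicate 1. They took 22.84% there and 25.22% in TAC replicate 3, against 29.96% to 33.52% in control hearts. Their median against the control mean was -0.99 in TAC replicate 3, with 13 of 13 below that mean, against -2.32 for the nuclear-encoded subunits. In KO-TAC replicate 1 it was -0.89, against -0.17 for the nuclear-encoded subunits, and in TAC replicate 1 it was 0.23, against -0.07 for the nuclear-encoded ones. In KO-TAC against control 12 of 13 were lower, with a median of -0.42 (all genes 0.038) and none passing in edgeR. Spread among them was wide in KO-TAC replicate 1. The complex I subunit mt-Nd5 had 3017, 11043 and 18973 CPM in KO-TAC hearts, against 33945, 27591 and 27270.0 CPM in control hearts. The complex IV subunit mt-Co3 had 17433, 17220.0 and 17918 CPM in KO-TAC hearts, against 20803, 17587 and 17616 CPM in control hearts. Reads of these genes may also be counted at nuclear copies of mitochondrial DNA, so their levels are uncertain.

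The 12 transcriptional regulators had a median of -0.78 in TAC against control and -0.39 in KO-TAC against control, with 10 and 11 of them lower. Ppargc1a, which encodes PGC-1alpha, had 38.1, 49.0 and 83.5 CPM in KO-TAC hearts, 20.9, 265.4 and 4.54 CPM in TAC hearts, and 93.1, 92.1 and 85.4 CPM in control hearts. Esrrg, an estrogen-related receptor, had 18.0, 25.3 and 44.7 CPM in KO-TAC hearts, 10.1, 42.5 and 0.59 CPM in TAC hearts, and 50.8, 48.1 and 47.2 CPM in control hearts. Ppara, a nuclear receptor of fatty acid use, had 4.38, 8.74 and 16.9 CPM in KO-TAC hearts, 4.70, 27.5 and 1.63 CPM in TAC hearts, and 35.5, 26.1 and 27.0 CPM in control hearts. The KO-TAC hearts all lay below the control hearts in 4 of the 12 regulators, these 3 and Gabpa (13.6% of all genes did), and none passed in edgeR. The TAC hearts all lay below the control hearts in 5 of the 12 (14% of all genes did) and all above in 1 (14.1% did). Nrf1, the gene of the factor whose letters were searched above, had 9.55, 7.60 and 11.5 CPM in KO-TAC hearts, 10.1, 11.4 and 15.6 CPM in TAC hearts, and 8.47, 9.86 and 8.79 CPM in control hearts. Nrf1 was at its highest in TAC replicate 3, the heart in which 52 of 52 subunit genes were lowest.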

How the data were processed

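Libraries were made from Trizol-extracted heart RNA with a kit that keeps strand (NEBNext Ultra II), per the labels' protocols. The authors deposited whole-number counts by gene symbol for 9 libraries, with no sign of normalization. The submitters' processing notes name the builds GRCm38 and mm10 and, among the tools, HISAT2 2.2.1, StringTie 2.2.1, Trim Galore 0.6.10, DESeq2 1.42.0 and SAMtools 1.15. No source used here names the counting tool, annotation, strand setting or treatment of multiply mapped reads. Of the 52 genes, 16 overlap an exon of another gene on the opposite strand and 3 on the same strand, so a part of their counts is uncertain. The labels do not say that each heart of a group is a separate mouse, and the p-values then reflect only how these libraries vary, which may be technical.

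Counts were tested with the two-sided quasi-likelihood test of edgeR 4.0.16 in R 4.3.3 after TMM scaling and filterByExpr at a minimum count of 10. A model of the group alone held the 9 libraries, and p-values were adjusted by Benjamini-Hochberg over the 19051 genes kept, with a threshold of 0.05. The biological coefficient of variation was 42.1%. CPM were scaled with the same factors, and log2 values per heart had 0.5 times a prior count of 2 added to each count. The script was tested on simulated counts with an equal spread in each group, set below the one found here. That test bears on the code and not on the precision of these comparisons. Isoform ratios had 0.5 added to each count and an exact permutation test. Alternatives were RLE factors, library size alone, mitochondrial genes and their nuclear copies left out, other filters, DESeq2 1.42.0, limma-voom (limma 3.58.1), fitting just the groups compared, a block for the replicate number, and each library left out. Gene positions and lengths are from GENCODE's GRCm38 annotation and promoters from RefSeq. Subunit genes given with CPM were, in each complex, the most abundant per kilobase and those with the lowest and highest difference. The catalytic and carrier subunits and the muscle isoforms with their ubiquitous forms were given too. Ndufs3, mt-Nd5, mt-Co3 and the transcriptional regulators given with CPM were named outside this rule. The members and lists were chosen with earlier results of these data known.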

Additional observations from a re-analysis of the deposited data

How the results depend on the processing

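The count of subunit genes that passed was 0 in each comparison under each alternative run, except TAC against control without TAC replicate 2, where it was 3 (range 0 to 3 over the libraries left out). The cause was not tested. The median log2 difference over the 52 genes ranged, over the libraries left out, from -0.78 to 0.11 in TAC against control, from -0.09 to 0.78 in KO-TAC against TAC, and from -0.06 to 0.11 in KO-TAC against control. With library size alone the KO-TAC against control median was 0.24, and the cause was not tested. limma-voom gave medians of -0.67, 0.66 and 0.028 in the 3 comparisons. With the replicate block the medians were -0.52, 0.52 and 0.014 with 0 genes passing. Deviations of hearts with the same replicate number in their titles correlated from -0.255 to 0.124. The count columns of the TAC hearts carry other numbers than their titles, so these values cannot show whether hearts shared a batch. Without TAC replicate 3, 33 of 99 values of named genes and isoform ratios moved past their limits, by sign or by 1 SD. The median SD of the 52 genes among TAC hearts was 1.39 on the log2 scale, and the lowest count of a subunit gene in a library was 2044 (Ndufc2 in TAC replicate 3). What set the precision was not tested.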
